A study of Drosophila melanogaster with 16 samples.

Results

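Heat shock protein genes encode chaperones, proteins that keep other proteins folded. The 10 genes described here were taken from the counts table by their FlyBase symbols: the small heat shock proteins Hsp22, Hsp23, Hsp26, Hsp27 and Hsp67Bc, the Hsp70 family genes Hsp68, Hsp70Aa and Hsp70Bb, the Hsp90 gene Hsp83, and the J protein gene DnaJ-1. They are 10 of the 17753 genes in the table, and 9 of the 10 passed the filter on low counts and were tested. Hsp22 was the exception, with 0 counts in all 16 libraries.

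Small heat shock proteins hold unfolding proteins in a soluble state, Hsp70 proteins refold them in cycles of ATP hydrolysis, J proteins such as DnaJ-1 deliver substrates to Hsp70 and stimulate that cycle, and Hsp90 matures signalling proteins together with co-chaperones. In Drosophila most of these genes are switched on by the heat shock factor Hsf after stress. Several are also transcribed without stress in nurse cells of the ovary, so that Hsp83, Hsp26 and Hsp27 RNA is loaded into the egg. Maternal Hsp83 RNA is known to be cleared from the body of the early embryo and kept in the pole cells.

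The libraries hold total RNA of Drosophila melanogaster embryos, 2 libraries of 50 hand-sorted embryos for each of 4 genotypes at each of 2 stages. Embryos came from 1 h egg lays aged for 2 h at 25 °C, and no heat shock is part of the design. The later stage is St7-8, embryonic stages 7 to 8 during gastrulation, and the earlier is NC14, the nuclear cycle 14 embryo at stage 5. Su113 embryos were wm4h;JasperSu113/JasperSu113 and Su140 embryos wm4h;JasperSu140/JasperSu140, which are homozygous for different alleles of the gene for JASPer, a PWWP domain cofactor of transcription. The third mutant, written Su(var)3-9 here, carries wm4h and is homozygous for the allele labelled Su(var)3-906 of the gene for a histone methyltransferase of heterochromatin. The control was wm4h;+/+, written wm4h here. All groups, controls included, carry wm4h, an X inversion that sets the white gene beside heterochromatin. In pools of whole embryos, RNA loaded by the mother and RNA made by the embryo cannot be told apart, and neither can fewer cells of a type and less RNA per cell.

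Total counts ranged between 43466130 and 92790237 per library, and levels are given in CPM on library sizes scaled by edgeR's TMM factors. The markers of stage did not follow the labels in every library. Summed over 15 later zygotic genes, the libraries labelled St7-8 held 519 and 224 CPM in Su113, 1006 and 965 CPM in Su140, 1977 and 2139 CPM in Su(var)3-9, and 1093 and 518 CPM in wm4h. At NC14 the same sum was 338 and 372 CPM in Su113, 129.6 and 133 CPM in Su140, 559 and 838 CPM in Su(var)3-9, and 599 and 603 CPM in wm4h. Both Su113 St7-8 libraries and wm4h St7-8 replicate 2 thus lay below both wm4h NC14 libraries. Of 6 cellularization genes, Sry-alpha was at 0 counts in every library. At St7-8 the summed level was 2334 and 1386 CPM in Su113 and 3197 and 2559 CPM in Su140. It was 206 and 194 CPM in Su(var)3-9 and 1802 and 5418 CPM in wm4h. At NC14 it was 6887 and 5566 CPM in Su113 and 6375 and 6087 CPM in Su140. In Su(var)3-9 it was 4396 and 3067 CPM and in wm4h 4171 and 4943 CPM at NC14. By this sum both Su113 St7-8 libraries lay below every NC14 library. Older embryo markers summed to 407 and 1083 CPM in Su113 and 424 and 1283 CPM in Su140 at St7-8. At that stage they summed to 406 and 299.8 CPM in Su(var)3-9 and 266 and 122 CPM in wm4h. Each of these St7-8 libraries had counts for 8 of 8 genes. At NC14 the sum was 191 and 206 CPM in Su113 and 108 and 72.8 CPM in Su140. It was 225 and 339 CPM in Su(var)3-9 and 331 and 262 CPM in wm4h, where the stages thus overlapped. Muscle myosin Mhc was at 86.8 and 447 CPM in Su113 and at 0.335 and 412 CPM in Su140 at St7-8, against 9.62 and 0.398 CPM in wm4h. Germ plasm genes, 6 of 6 detected in each library, summed to 2618 and 4096 CPM in Su113, 2256 and 1877 CPM in Su140, 2006 and 1840 CPM in Su(var)3-9, and 2756 and 3479 CPM in wm4h at St7-8, and CycB alone made up 1924 and 2808 CPM in Su113 and 2247 and 2929 CPM in wm4h. Of the other 5 genes, osk was at 286 and 631 CPM in Su113, 137 and 69.6 CPM in Su140, 39.0 and 10.8 CPM in Su(var)3-9, and 146 and 192 CPM in wm4h. The vas level was 34.1 and 72.5 CPM in Su113, 15.2 and 7.52 CPM in Su140, 4.92 and 6.16 CPM in Su(var)3-9, and 14.3 and 18.4 CPM in wm4h, and pgc, at 45.3 and 107 CPM in Su113 against 26.9 and 34.5 CPM in wm4h, was likewise higher in both Su113 libraries. Ovary and adult markers summed to between 0.570 and 2.63 CPM, with Cp16 and Cp38 at 0 in all libraries. For many results that rest on these libraries, values with a single library left out are given below. No fit left out both Su113 St7-8 libraries.

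Per kilobase of exon, the members spanned a wide range of levels in wm4h embryos. At St7-8, Hsp83 had 96.7 ± 13.5 CPM per kb, followed by DnaJ-1 at 68.9 ± 5.06, Hsp26 at 60.7 ± 11.9, Hsp23 at 59.0 ± 7.12 and Hsp27 at 45.0 ± 2.79 CPM per kb (SD, n = 2 each). DnaJ-1, Hsp26 and Hsp23 did not differ beyond their spread. Hsp68 followed at 4.27 ± 1.76 CPM per kb, then Hsp67Bc at 0.329 ± 0.161, Hsp70Bb at 0.322 ± 0.0555 and Hsp70Aa at 0.0448 ± 0.0390 CPM per kb, and Hsp67Bc and Hsp70Bb were level within their spread. At NC14 the order in wm4h was Hsp83 at 90.1 ± 15.6, Hsp26 at 71.3 ± 3.62, DnaJ-1 at 68.9 ± 20.8, Hsp23 at 48.3 ± 12.0, Hsp27 at 43.1 ± 20.5, Hsp68 at 3.89 ± 0.103, Hsp70Bb at 0.953 ± 0.495, Hsp67Bc at 0.126 ± 0.0139 and Hsp70Aa at 0.00767 ± 0.0109 CPM per kb (SD, n = 2 each). Hsp26 and DnaJ-1, DnaJ-1 and Hsp23, and Hsp23 and Hsp27 overlapped as neighbours in that order.

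**Figure D1:**
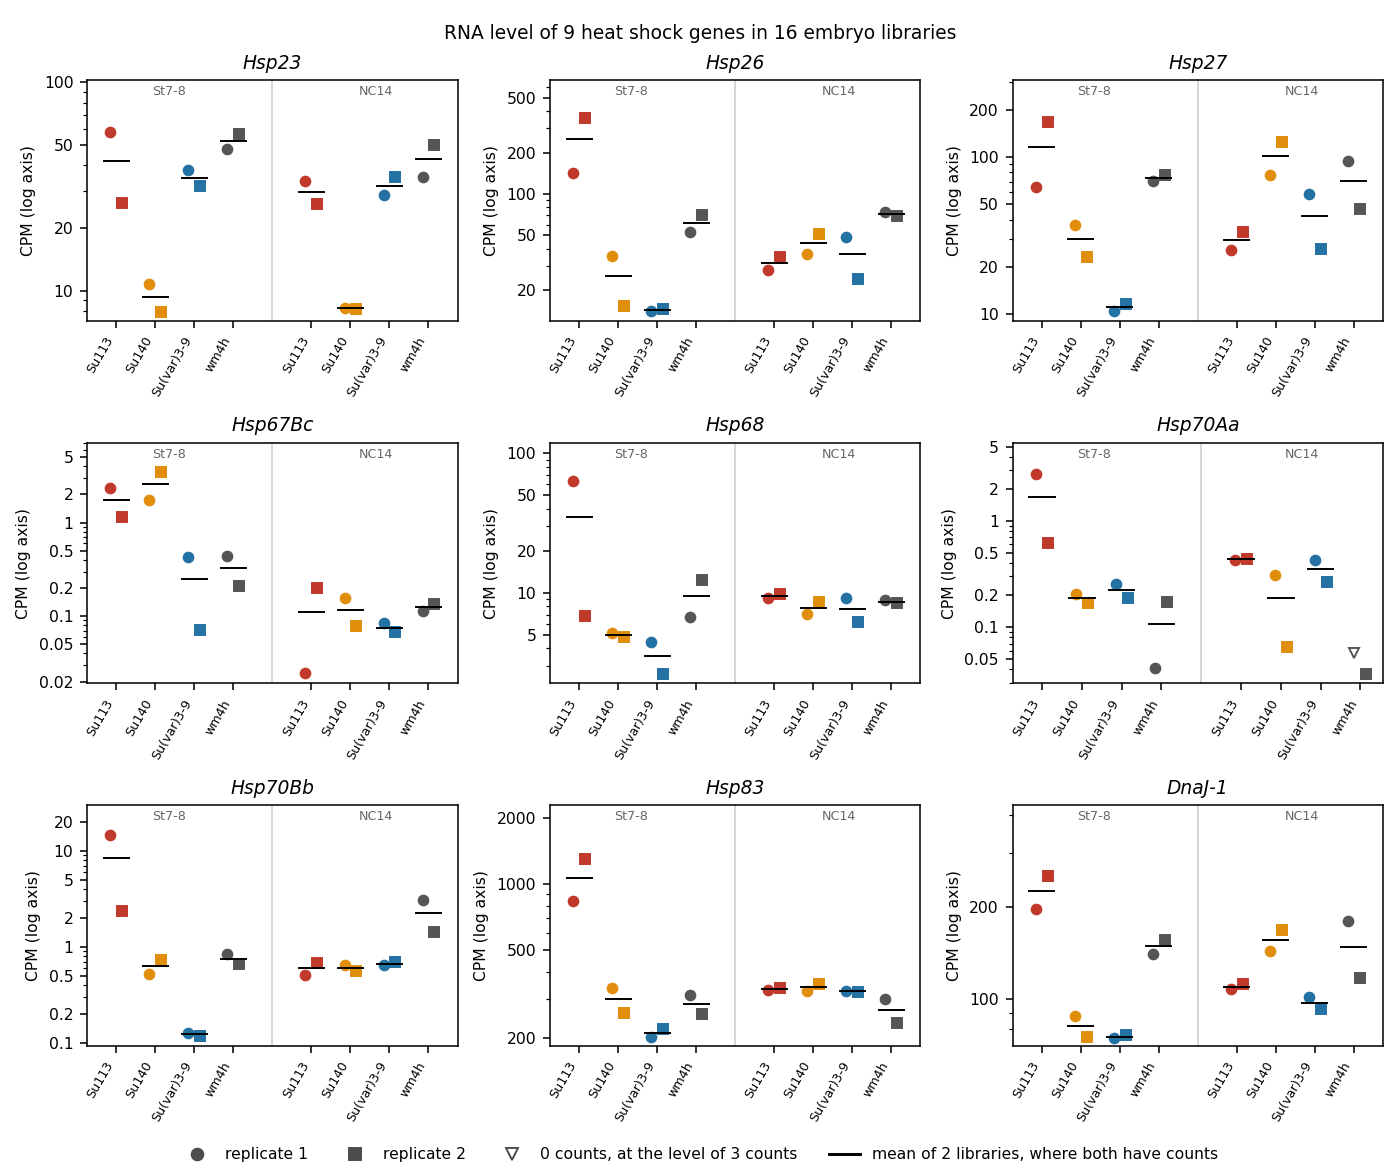
CPM of the tested heat shock genes in each of the 16 libraries on a log axis, St7-8 groups to the left of NC14 groups and wm4h last within a stage; bars mark the mean of the 2 libraries where both have counts, and an open triangle marks a library with 0 counts at the level of 3 counts. Hsp23 lies between 7.92 and 10.8 CPM in the 4 Su140 libraries, below every other library, and Hsp83 lies at 843 and 1304 CPM in the Su113 St7-8 libraries, above every other library.

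The 5 small heat shock members lie together on chromosome 3L, within 14184 bases between 9371511 and 9385694 in dm6 coordinates. With the small heat shock genes CG4461 and Hsp67Ba, which lie between them, their order is Hsp67Bc, Hsp22, CG4461, Hsp26, Hsp67Ba, Hsp23 and Hsp27. The gap between Hsp26 and Hsp67Ba is 374 bases and the gap between Hsp23 and Hsp27 is 1297 bases. All 1900 exon bases of Hsp22 are shared on the same strand with CG4456, which had 8 counts over all libraries. How the authors' counting treated reads in such an overlap is not given in the sources used here. If those reads were counted, 0 counts allow Hsp22 a level of up to 0.0573 CPM in the library where that limit is highest (3 counts, counting error only); if they were dropped, the counts set no limit. The neighbours had different patterns across genotypes and stages.

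Hsp23 was lower in Su140 embryos than in wm4h embryos at both stages. At St7-8 it had 57.9 and 26.4 CPM in Su113, 10.8 and 7.92 CPM in Su140, 38.1 and 31.7 CPM in Su(var)3-9, and 47.7 and 56.6 CPM in wm4h. At NC14 it had 33.7 and 26.2 CPM in Su113, 8.30 and 8.17 CPM in Su140, 28.7 and 35.2 CPM in Su(var)3-9, and 35.2 and 50.2 CPM in wm4h. All 4 Su140 libraries lay below the other 12. Against wm4h, Hsp23 fell by 2.48 ± 0.34 on the log2 scale in Su140 at St7-8 (SE, edgeR adjusted p = 0.0071), to 0.180 times the control level. In Su140 at NC14 it fell by 2.37 ± 0.34 (edgeR adjusted p = 0.0028), to 0.193 times the control level. The difference between these effects was -0.10 ± 0.46 (edgeR adjusted p = 0.926). In Su113 the log2 fold changes were -0.30 ± 0.32 at St7-8 and -0.51 ± 0.32 at NC14, and in Su(var)3-9 they were -0.58 ± 0.32 and -0.42 ± 0.32, none past the threshold. The St7-8 call in Su140 was lost without Su140 replicate 2 (-2.27, edgeR adjusted p = 0.0724), the library with Mhc at 412 CPM, and without wm4h replicate 2 (-2.35, edgeR adjusted p = 0.054). In a fit of the St7-8 libraries alone it was -2.36 (edgeR adjusted p = 0.163), where 0 of all 12019 genes were called. Once the later zygotic score of each library entered the model, the NC14 value was -1.28 (edgeR adjusted p = 0.513).

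Hsp26 differed in opposite directions in the Su113 and Su(var)3-9 embryos at St7-8. It had 143 and 357 CPM in Su113, 35.6 and 15.3 CPM in Su140, 14.05 and 14.5 CPM in Su(var)3-9, and 52.8 and 69.9 CPM in wm4h at that stage. It had 27.9 and 34.8 CPM in Su113, 37.0 and 51.3 CPM in Su140, 48.8 and 24.0 CPM in Su(var)3-9, and 74.6 and 69.5 CPM in wm4h at NC14. The Su113 libraries were thus the highest at St7-8, while both wm4h libraries were the highest at NC14. Against wm4h at St7-8, Hsp26 rose in Su113 by 2.03 ± 0.48 on the log2 scale (edgeR adjusted p = 0.0459). In Su(var)3-9 it fell by 2.10 ± 0.48 (edgeR adjusted p = 0.00864). The Su140 value was -1.27 ± 0.47 (edgeR adjusted p = 0.19). At NC14 the log2 fold change was -1.20 ± 0.47 for Su113, -0.71 ± 0.46 for Su140 and -0.99 ± 0.46 for Su(var)3-9, below the control in all 6 mutant libraries and not past the threshold. The Su113 call was lost without wm4h St7-8 replicate 1 (1.83, edgeR adjusted p = 0.104), without wm4h St7-8 replicate 2 (2.23, edgeR adjusted p = 0.197) and without Su113 St7-8 replicate 2 (1.37, edgeR adjusted p = 0.225). Without Su113 St7-8 replicate 1 it was 2.53 (edgeR adjusted p = 0.0109). The Su113 call was also lost in the model that held the later zygotic score (1.03, edgeR adjusted p = 0.406), where 22 of all 12398 genes were called. It was lost in a fit of the St7-8 libraries alone (2.17, edgeR adjusted p = 0.185), where 2 of all 12019 genes were called. It was lost as well with the replicate number as a block (2.02, edgeR adjusted p = 0.0709). The Su(var)3-9 call was lost without wm4h replicate 2 (-1.89, edgeR adjusted p = 0.0702), Su(var)3-9 replicate 1 (-2.09, edgeR adjusted p = 0.0623) or Su(var)3-9 replicate 2 (-2.15, edgeR adjusted p = 0.057), and it was -0.99 in the model that held the later zygotic score (edgeR adjusted p = 0.478).

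Hsp27 was lowest in the Su(var)3-9 embryos at St7-8. It had 65.1 and 168 CPM in Su113, 37.0 and 23.1 CPM in Su140, 10.4 and 11.7 CPM in Su(var)3-9, and 70.2 and 76.6 CPM in wm4h at that stage. At NC14 it had 25.8 and 33.6 CPM in Su113, 77.4 and 125 CPM in Su140, 58.0 and 25.8 CPM in Su(var)3-9, and 94.0 and 46.7 CPM in wm4h. The control libraries were close to each other at St7-8 and far apart at NC14. At St7-8 and against wm4h, Hsp27 in Su(var)3-9 fell by 2.73 ± 0.52 on the log2 scale (edgeR adjusted p = 0.00358), to 0.15 times the control level. Leaving out any library of these groups kept this call, at -2.85 to -2.66 (largest edgeR adjusted p = 0.0399). In the model that held the later zygotic score it was -1.62 (edgeR adjusted p = 0.293). In Su140 the St7-8 value was -1.29 ± 0.49 (edgeR adjusted p = 0.207), with both libraries below the controls, and in Su113 it was 0.67 ± 0.49 (edgeR adjusted p = 0.383), with the groups overlapping.

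Hsp67Bc was near the limit of detection at NC14 and higher at St7-8 in the Jasper mutants. At St7-8 it had 234 and 60 counts, or 2.33 and 1.14 CPM, in Su113, and 136 and 269 counts, or 1.75 and 3.47 CPM, in Su140. Su(var)3-9 had 0.424 and 0.0711 CPM and wm4h 0.437 and 0.212 CPM at this stage. At NC14 all 8 libraries held between 2 and 14 counts, with 0.0245 and 0.199 CPM in Su113, 0.155 and 0.0777 CPM in Su140, 0.0838 and 0.0672 CPM in Su(var)3-9, and 0.115 and 0.134 CPM in wm4h. The 4 Jasper mutant libraries at St7-8 lay above all the others. Between stages, Hsp67Bc rose by 3.96 ± 1.02 on the log2 scale in Su113 (edgeR adjusted p = 0.0229) and by 4.48 ± 1.04 in Su140 (edgeR adjusted p = 0.012). Against wm4h at St7-8 the values were 2.42 ± 0.93 in Su113 (edgeR adjusted p = 0.149) and 3.00 ± 0.95 in Su140 (edgeR adjusted p = 0.141), neither past the threshold.

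Hsp68, an Hsp70 family gene induced by heat, stood out in a single library. At St7-8 it had 63.6 and 6.85 CPM in Su113, 5.16 and 4.83 CPM in Su140, 4.44 and 2.63 CPM in Su(var)3-9, and 6.75 and 12.3 CPM in wm4h. It had 9.15 and 9.82 CPM in Su113, 7.08 and 8.61 CPM in Su140, 9.18 and 6.16 CPM in Su(var)3-9, and 8.83 and 8.51 CPM in wm4h at NC14. Apart from Su113 St7-8 replicate 1, no library exceeded 12.3 CPM. The Su113 value against wm4h at St7-8 was 1.89 ± 0.71 (edgeR adjusted p = 0.141), and it turned to -0.49 without that replicate (edgeR adjusted p = 0.463). Without Su113 St7-8 replicate 2 it was 2.90 (edgeR adjusted p = 0.00904).

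Hsp70Aa and Hsp70Bb are 2 of 6 near-identical heat-induced Hsp70 copies on chromosome 3R, the others being Hsp70Ab, Hsp70Ba, Hsp70Bbb and Hsp70Bc, and how the authors' counting shared reads between them is not given in the sources used here. Values of single copies are therefore uncertain, and the sum over the 6 copies is given beside them. At St7-8, Hsp70Bb had 14.5 and 2.35 CPM in Su113, 0.528 and 0.723 CPM in Su140, 0.127 and 0.118 CPM in Su(var)3-9, and 0.847 and 0.663 CPM in wm4h. At NC14 it had 0.514 and 0.683 CPM in Su113, 0.653 and 0.557 CPM in Su140, 0.643 and 0.694 CPM in Su(var)3-9, and 3.06 and 1.41 CPM in wm4h. Su113 St7-8 replicate 1 was the highest library, as for Hsp68. Against wm4h at St7-8, Hsp70Bb rose in Su113 by 3.48 ± 0.73 on the log2 scale (edgeR adjusted p = 0.0279). In Su(var)3-9 it fell by 2.60 ± 0.73 (edgeR adjusted p = 0.0227), on 9 and 10 counts against 62 and 50 counts. The Su113 call was lost without Su113 replicate 1 (1.62, edgeR adjusted p = 0.0744), wm4h replicate 1 (3.66, edgeR adjusted p = 0.0725) or wm4h replicate 2 (3.31, edgeR adjusted p = 0.211), and in a fit of the St7-8 libraries alone (3.59, edgeR adjusted p = 0.192). The Su(var)3-9 call was lost with each library of these groups left out, at -2.77 to -2.42 (edgeR adjusted p of 0.0602 to 0.115), and the value was -4.4 in the model that held the later zygotic score (edgeR adjusted p = 0.0761).

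Summed over the 6 copies, Hsp70 was at 62.6 and 7.72 CPM in Su113, 2.96 and 2.91 CPM in Su140, 1.46 and 1.63 CPM in Su(var)3-9, and 3.497 and 3.75 CPM in wm4h at St7-8. At NC14 the sum was 3.33 and 4.58 CPM in Su113, 4.07 and 4.53 CPM in Su140, 3.77 and 3.91 CPM in Su(var)3-9, and 5.58 and 3.16 CPM in wm4h. Both Su113 St7-8 libraries lay above every other library. The summed value rose in Su113 against wm4h at St7-8 by 3.28 ± 0.70 on the log2 scale (edgeR adjusted p = 0.0323). Without Su113 replicate 1 it was 1.08 ± 0.38 (edgeR adjusted p = 0.0895). For Su(var)3-9 the summed value was -1.23 ± 0.66 (edgeR adjusted p = 0.2), so that the call of Hsp70Bb was not met by the sum. The copy Hsp70Ba was called higher in that comparison, at a mean of 0.366 CPM against 0.0339 CPM in wm4h. That wm4h mean lay below the level of 3 counts, 0.041 and 0.0398 CPM in the wm4h libraries. With a library left out, the log2 fold change of Hsp70Ba was 2.71 to 4.62, and the call was lost in each of these fits. At NC14, Hsp70Ba had a mean of 0.583 CPM in Su(var)3-9 against 0.0217 CPM in wm4h, not past the threshold.

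Hsp70Aa differed at NC14 in a way that the sum did not. It had 35 and 31 counts in Su113, 20 and 5 in Su140, 31 and 24 in Su(var)3-9, and 0 and 3 in wm4h at NC14. These are 0.428 and 0.441 CPM in Su113, 0.311 and 0.0648 CPM in Su140, 0.433 and 0.269 CPM in Su(var)3-9, and 0 and 0.0366 CPM in wm4h. All 6 mutant libraries lay above both controls. The ratio of counts to the pooled wm4h level was 19.4 for Su113 (95% counting interval 6.37 to 96.7), 7.91 for Su140 (2.41 to 40.9) and 15.3 for Su(var)3-9 (4.97 to 76.5). None passed the test across libraries, with edgeR adjusted p of 0.137, 0.124 and 0.178 in that order of mutants. For Hsp70Bb, with the same 6 libraries below both controls, the log2 fold changes were -1.90 ± 0.69, -1.88 ± 0.69 and -1.74 ± 0.68, which did not pass the threshold either (edgeR adjusted p of 0.237, 0.105 and 0.281). Summed over the 6 copies, the same comparisons gave -0.14 ± 0.65, -0.02 ± 0.65 and -0.18 ± 0.65. All these comparisons share the same wm4h libraries. At St7-8, Hsp70Aa had 2.74 and 0.625 CPM in Su113, 0.206 and 0.168 CPM in Su140, 0.254 and 0.189 CPM in Su(var)3-9, and 0.0410 and 0.172 CPM in wm4h.

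Hsp83, the Hsp90 of the cytosol and the most abundant member, was raised in Su113 embryos at St7-8. It had 843 and 1304 CPM in Su113, 338 and 261 CPM in Su140, 202 and 219 CPM in Su(var)3-9, and 315 and 258 CPM in wm4h at that stage. It had 329 and 336 CPM in Su113, 328 and 350.1 CPM in Su140, 328 and 324 CPM in Su(var)3-9, and 299 and 234 CPM in wm4h at NC14. The NC14 libraries were alike across genotypes, with all 6 mutant libraries a little above both controls, while at St7-8 the Su113 libraries lay far above the rest. At St7-8 and against wm4h, Hsp83 rose in Su113 by 1.91 ± 0.21 on the log2 scale (edgeR adjusted p = 0.00169), to 3.75 times the control level. The call held with each library left out, at 1.71 to 2.18 (largest edgeR adjusted p = 0.0332). It was 1.62 in the model that held the later zygotic score (edgeR adjusted p = 0.0522) and 2.03 in a fit of the St7-8 libraries alone (edgeR adjusted p = 0.0973). Those fits called 22 of all 12398 genes and 2 of all 12019 genes. The Su140 and Su(var)3-9 values at St7-8 were 0.07 ± 0.21 (edgeR adjusted p = 0.881) and -0.45 ± 0.21 (edgeR adjusted p = 0.138). The Su113 libraries also held the Mhc levels given above, and Su140 St7-8 replicate 2, with Mhc at 412 CPM, had Hsp83 at 261 CPM. Of the 6 germ plasm genes, osk, vas, pgc and tud were higher in both Su113 St7-8 libraries than in both wm4h ones, while gcl and CycB overlapped between these groups. The part of older embryo material and of pole cells in the Su113 value was not tested.

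DnaJ-1, the J protein that works with Hsp70, was lower in Su(var)3-9 embryos at St7-8. It had 198 and 254 CPM in Su113, 88.2 and 75.4 CPM in Su140, 74.8 and 76.2 CPM in Su(var)3-9, and 141 and 157 CPM in wm4h at that stage. At NC14 it had 108 and 112 CPM in Su113, 144 and 169 CPM in Su140, 102 and 92.9 CPM in Su(var)3-9, and 181 and 117 CPM in wm4h. At St7-8 the 4 genotypes did not overlap except for Su140 and Su(var)3-9. Against wm4h at St7-8, DnaJ-1 in Su(var)3-9 fell by 0.98 ± 0.20 on the log2 scale (edgeR adjusted p = 0.00519), and with each library left out the value was -1.06 to -0.91 (largest edgeR adjusted p = 0.0449). In the model that held the later zygotic score it was -0.68 (edgeR adjusted p = 0.319). In Su140 it was -0.86 ± 0.20 (edgeR adjusted p = 0.0621) and in Su113 0.60 ± 0.20 (edgeR adjusted p = 0.114).

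Counted over the 9 tested members, Su113 and Su(var)3-9 had more calls against wm4h at St7-8 than at NC14, and Su140 had as many. The test of the difference between stages, given below, called 0 members. In Su113 at St7-8, 3 members rose (Hsp83, Hsp70Bb and Hsp26) and none fell, where 2.85% of all 12398 genes tested were called. In Su140, 1 member fell (Hsp23), against 1.15% of all genes called. In Su(var)3-9, 4 members fell (Hsp27, DnaJ-1, Hsp26 and Hsp70Bb) and none rose, against 24.8% of all genes called, so that 4 of 9 stands over a high background. The median log2 fold change of the members was 1.91 for Su113, -0.86 for Su140 and -0.98 for Su(var)3-9, where the medians of all genes were -0.09, -0.05 and 0.04. At NC14, 1 member fell in Su140 (Hsp23), where 9.56% of all genes were called. In Su113 and Su(var)3-9 at NC14, edgeR's quasi-likelihood test called 0 members, against 0.936% and 0.331% of all genes called. At an unadjusted p under 0.05 there were 5 and 3 members, and DESeq2 called 1 (Hsp70Aa) and 2 (Hsp70Aa and DnaJ-1). The median log2 fold changes at NC14 were -0.44, -0.11 and -0.61 for Su113, Su140 and Su(var)3-9.

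**Figure D2:**
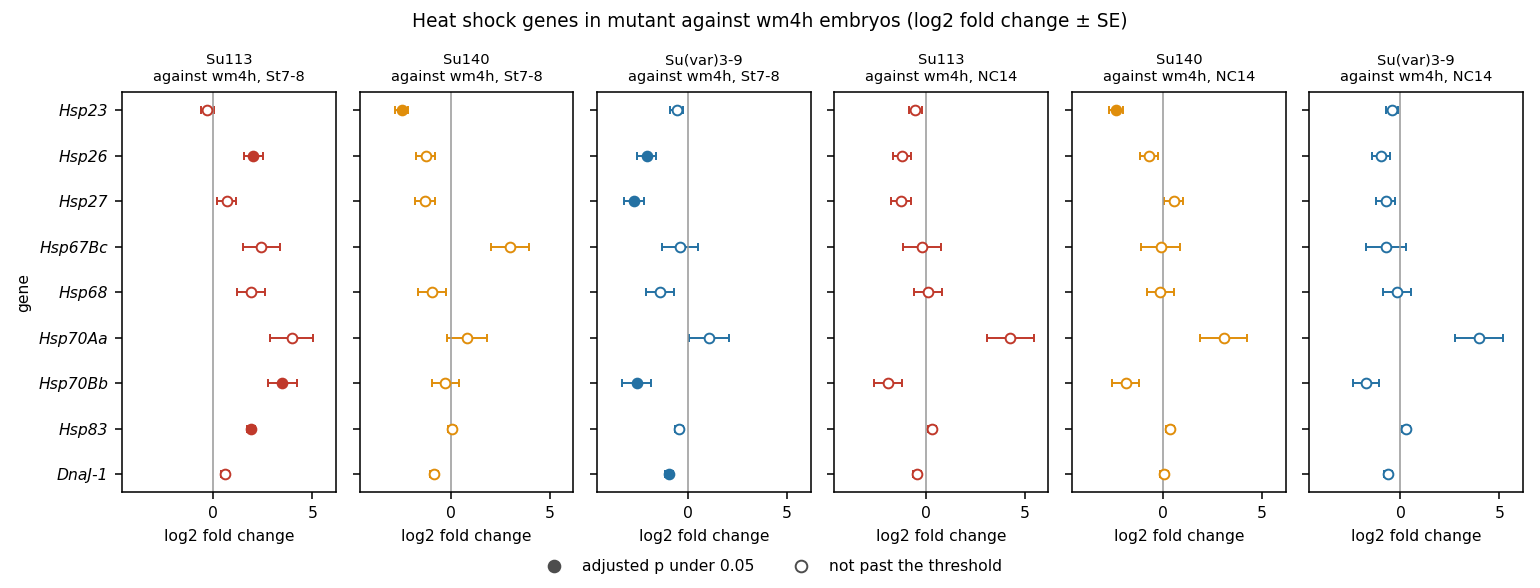
Log2 fold change of each tested member in the 3 mutants against wm4h, with the St7-8 panels left of the NC14 panels, bars of 1 SE from edgeR's fit and filled points where the adjusted p is under 0.05. Hsp23 lies at -2.48 and -2.37 in Su140, and at St7-8 Hsp83 lies at 1.91 in Su113 while Hsp27 lies at -2.73 in Su(var)3-9.

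Between the stages, the called members were higher at St7-8 in Su113 and lower at St7-8 in Su(var)3-9. In Su113, 6 members rose at St7-8 against NC14 and none fell, where 21.8% of all genes were called. Hsp26 rose by 2.99 ± 0.49 on the log2 scale (edgeR adjusted p = 0.00467), Hsp83 by 1.69 ± 0.21 (edgeR adjusted p = 0.00199), Hsp70Bb by 3.82 ± 0.74 (edgeR adjusted p = 0.00798), Hsp27 by 1.98 ± 0.50 (edgeR adjusted p = 0.0226), DnaJ-1 by 1.04 ± 0.20 (edgeR adjusted p = 0.00813), and Hsp67Bc as given above. With each of the 4 libraries left out, the rise was 2.32 to 3.5 for Hsp26, 1.48 to 1.96 for Hsp83 and 1.96 to 4.74 for Hsp70Bb. It was 1.27 to 2.5 for Hsp27, 0.98 to 1.2 for DnaJ-1 and 3.23 to 6.05 for Hsp67Bc. Most of these calls were lost with either Su113 NC14 library left out, where far fewer of all genes were called too. The calls of Hsp27 and Hsp67Bc were also lost without Su113 St7-8 replicate 2. The Hsp70 sum rose by 3.15 ± 0.70 (edgeR adjusted p = 0.0138), and without Su113 St7-8 replicate 1 it was 0.96 ± 0.39 (edgeR adjusted p = 0.0865). The median over the members was 1.95, against -0.03 over all genes.

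In Su140, DnaJ-1 fell by 0.94 ± 0.20 (edgeR adjusted p = 0.00907) and Hsp27 by 1.75 ± 0.50 (edgeR adjusted p = 0.0235) at St7-8 against NC14, while Hsp67Bc rose. These are 3 of 9 members, where 33.6% of all genes were called. With a library left out, the values were -1.05 to -0.74 for DnaJ-1, -2.07 to -1.3 for Hsp27 and 3.9 to 5.04 for Hsp67Bc. Calls were lost in these fits, which called fewer of all genes too. In Su(var)3-9, Hsp27 fell by 1.93 ± 0.51 (edgeR adjusted p = 0.0184), Hsp70Bb by 2.43 ± 0.73 (edgeR adjusted p = 0.0328) and Hsp83 by 0.63 ± 0.21 (edgeR adjusted p = 0.045), against 22.9% of all genes called. With a library left out, the values were -2.4 to -1.26 for Hsp27, -2.52 to -2.37 for Hsp70Bb and -0.75 to -0.62 for Hsp83. Calls were lost in these fits as well, and they called fewer of all genes. The Hsp70 sum gave -1.31 ± 0.66 (edgeR adjusted p = 0.177). In wm4h, edgeR called 0 members, 1 was at an unadjusted p under 0.05 (Hsp70Bb), DESeq2 called 0, and 0% of all genes were called. The library labelled wm4h St7-8 replicate 2 held 5418 CPM of cellularization genes, against 4171 and 4943 CPM in the wm4h NC14 libraries.

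**Figure D3:**
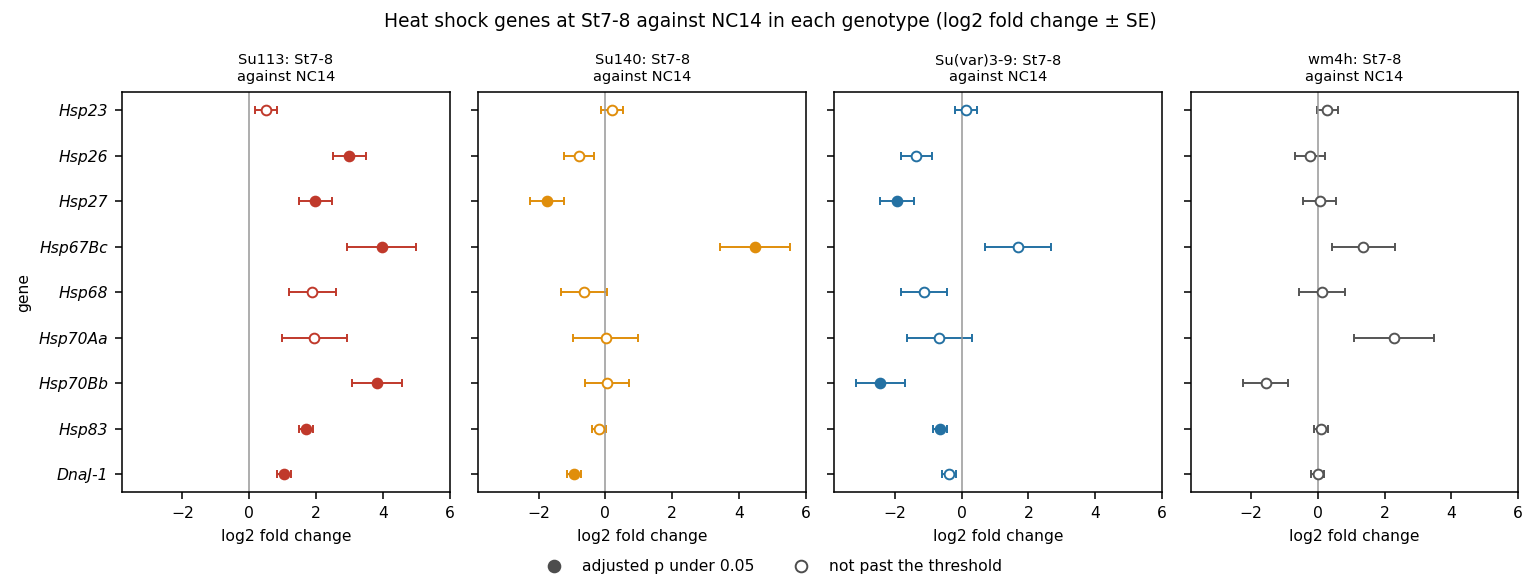
Log2 fold change of each tested member at St7-8 against NC14 in each genotype, with bars of 1 SE from edgeR's fit and filled points where the adjusted p is under 0.05. The filled Su113 points lie above 0, at 1.04 to 3.96, and the filled Su(var)3-9 points lie below 0, at -2.43 to -0.63.

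Whether a mutant's effect differed between the stages was tested as the difference of the effects. By edgeR's test 0 members passed for Su113, Su140 and Su(var)3-9, where 0.0887%, 0.274% and 1.84% of all genes were called. At an unadjusted p under 0.05 there were 5, 3 and 2 members, and DESeq2 called 5, 0 and 1. For Su113 the 3 members with the lowest p had differences of 5.38 ± 0.99 for Hsp70Bb (edgeR adjusted p = 0.0706), 3.23 ± 0.66 for Hsp26 (edgeR adjusted p = 0.0867) and 1.59 ± 0.29 for Hsp83 (edgeR adjusted p = 0.0706). Without Su113 St7-8 replicate 1, Hsp70Bb was at 3.52, Hsp26 at 3.73 and Hsp83 at 1.86. These passed the threshold in that fit, which holds 1 Su113 St7-8 library and called far more of all genes too. That Su113 and Su(var)3-9 effects were called at St7-8 and not at NC14 is thus not shown to be a difference between stages with all libraries in the fit.

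The Jasper alleles differed from each other in several members. At St7-8, 5 of 9 members were higher in Su113 than in Su140 and none was lower, where 2.4% of all genes were called. Hsp83 was higher by 1.84 ± 0.21 on the log2 scale (edgeR adjusted p = 0.00224), DnaJ-1 by 1.46 ± 0.20 (edgeR adjusted p = 0.0052), Hsp26 by 3.29 ± 0.50 (edgeR adjusted p = 0.00702), Hsp23 by 2.17 ± 0.34 (edgeR adjusted p = 0.0075) and Hsp70Bb by 3.75 ± 0.73 (edgeR adjusted p = 0.0228). The calls of Hsp83, DnaJ-1 and Hsp26 held with each of the 4 libraries left out, with the largest edgeR adjusted p at 0.0175, 0.0438 and 0.0456. Hsp23 was lost without Su140 replicate 2 (1.96, edgeR adjusted p = 0.0698), and Hsp70Bb without Su140 replicate 1 (3.51, edgeR adjusted p = 0.143) or Su140 replicate 2 (4.0, edgeR adjusted p = 0.104). In the model that held the later zygotic score, Hsp23 alone of the 9 members was called, where 5 of all 12398 genes were called. In a fit of the St7-8 libraries alone edgeR called 0 of the members and 0 of all 12019 genes. At NC14, Hsp23 was the only member called, higher in Su113 by 1.86 ± 0.33 (edgeR adjusted p = 0.0201), where 3.08% of all genes were called. Each library left out ended that call, at 1.69 to 2.03 (edgeR adjusted p of 0.0999 to 0.156).

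**Figure D4:**
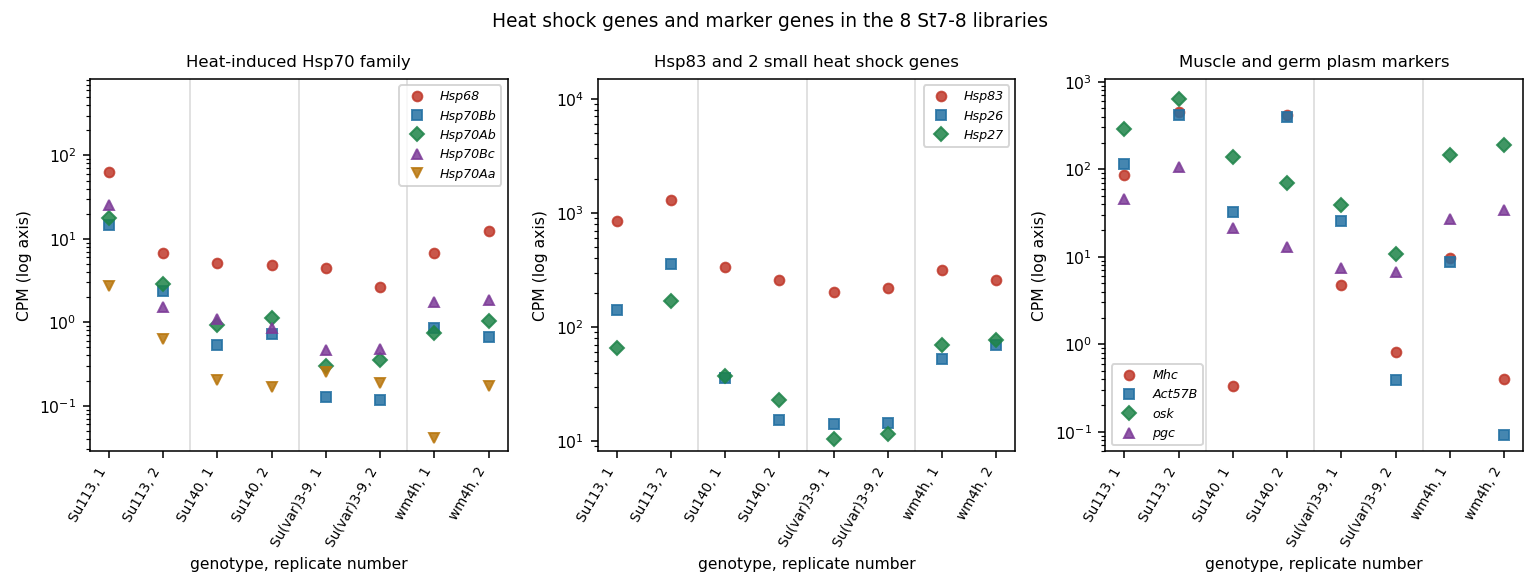
CPM on log axes in each of the 8 St7-8 libraries, mutants left of wm4h, for heat-induced Hsp70 family genes, for Hsp83, Hsp26 and Hsp27, and for muscle (Mhc, Act57B) and germ plasm (osk, pgc) markers. Su113 replicate 1 holds Hsp68 at 63.6 CPM and Hsp70Bb at 14.5 CPM, while Su113 replicate 2 and Su140 replicate 2 hold Mhc at 447 and 412 CPM.

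The wider chaperone system was read from a list of 47 genes, of which 44 were tested. The heat shock factor Hsf, which switches the heat-induced genes on, ranged between 152 and 212 CPM over the 16 libraries and passed the threshold in no comparison. At St7-8 and against wm4h, 13 of the 44 genes were called in Su(var)3-9, with 11 lower and 2 higher. As 24.8% of all genes were called, the count is near the background. The 2 higher ones were the copy Hsp70Ba and the heat-induced lncRNA:Hsromega, which had a mean of 2089 CPM against 793 CPM in wm4h. Both calls were lost with each library left out, at 1.27 to 1.47 on the log2 scale for lncRNA:Hsromega. Its mean was 2334 CPM in Su140 at St7-8 (log2 fold change 1.56, not past the threshold) and 2208 CPM in wm4h at NC14. The lowest adjusted p belonged to STUB1, a ubiquitin ligase that works with Hsp70, which had 13.0 and 6.58 CPM in Su(var)3-9 and 57.7 and 131 CPM in wm4h. STUB1 fell by 3.27 on the log2 scale (edgeR adjusted p = 0.000421). Hsc70-3, the Hsp70 of the endoplasmic reticulum, had 242 and 349.8 CPM in Su(var)3-9 and 656 and 866 CPM in wm4h, and fell by 1.36 (edgeR adjusted p = 0.00124). The Hsp70 co-chaperones HIP and Droj2 fell by 1.73 (edgeR adjusted p = 0.00194) and 1.56 (edgeR adjusted p = 0.00257), and the small heat shock gene CG14207 by 1.14 (edgeR adjusted p = 0.00201). These 5 genes were called with each library left out, the count of 13 ranged between 6 and 16 over those fits, and it was 0 in the model that held the later zygotic score. In Su113 at St7-8 the only call was CCT2, a subunit of the CCT chaperonin, higher by 1.0 (edgeR adjusted p = 0.0365), and the count ranged between 0 and 10 with a library left out. In Su140 at NC14, jdp, a J protein gene, fell by 3.15 (edgeR adjusted p = 0.0364), a call that was lost with each library left out. In Su113 and Su(var)3-9 at NC14 and in Su140 at St7-8 edgeR called 0 of the 44 genes, with 6, 8 and 9 at an unadjusted p under 0.05 and 3, 4 and 2 called by DESeq2.

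Between the stages, 12 of the 44 chaperone genes were called in Su113, with 10 higher and 2 lower at St7-8, where 21.8% of all genes were called, so that this count too is near the background. Fkbp59, an immunophilin that binds Hsp90, had 32.3 and 54.1 CPM at St7-8 and 13.5 and 11.05 CPM at NC14 in Su113, and rose by 1.81 (edgeR adjusted p = 0.00424). The mitochondrial chaperones Hsp60A and Hsc70-5 rose by 2.10 (edgeR adjusted p = 0.00571) and 1.45 (edgeR adjusted p = 0.00431), and the chaperonin subunits CCT8 and CCT4 by 1.23 (edgeR adjusted p = 0.00592) and 0.96 (edgeR adjusted p = 0.00618). With a library left out the count ranged between 0 and 14. In Su140, 11 were called, with 1 higher and 10 lower, where 33.6% of all genes were called. In Su(var)3-9, 15 were called, with 4 higher and 11 lower, where 22.9% of all genes were called. STUB1 and CG14207 were among the lower ones in both, at -1.45 and -0.84 in Su140 and at -3.28 and -1.42 in Su(var)3-9. With a library left out these counts ranged between 0 and 5 in Su140 and between 6 and 10 in Su(var)3-9. In wm4h edgeR called 0, with 8 at an unadjusted p under 0.05 and 4 called by DESeq2. Between the Jasper alleles at St7-8, Fkbp59, Hsp110, CCT7 and CCT2 were higher in Su113 than in Su140, by 1.48 (edgeR adjusted p = 0.0207), 0.93 (edgeR adjusted p = 0.0242), 1.06 (edgeR adjusted p = 0.0291) and 1.01 (edgeR adjusted p = 0.0347), and each of these was lost with at least 2 of the 4 libraries left out.

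Across the 16 libraries the members fell into patterns that differed by gene. As a description, Pearson's r of log2 CPM was 0.912 between Hsp26 and DnaJ-1, 0.901 between Hsp27 and DnaJ-1 and 0.846 between Hsp26 and Hsp27. Hsp23, which lies 1297 bases from Hsp27, had r of -0.09 with it and no r above 0.359 with any member. The points of these correlations share libraries, groups and scaling. The tested gene most like Hsp23 was mthl8 (r = 0.944), followed by CG7194 (r = 0.914) and CG10089 (r = 0.912). All 3 lie on chromosome 3L but not close to Hsp23, starting at bases 22428, 8302364 and 13465552 against 9381882 for Hsp23. For Hsp83 the genes most alike were CG6180 (r = 0.971) and exu (r = 0.970), which encodes a factor that localizes maternal RNA in the oocyte. For Hsp27 they were stai (r = 0.976) and CG6664 (r = 0.976), for Hsp26 Ork1 (r = 0.966), and for DnaJ-1 yip2 (r = 0.952), while Prx2, a peroxiredoxin, was second for both Hsp26 (r = 0.952) and DnaJ-1 (r = 0.945). For Hsp68 they were Hsp70Bc (r = 0.904), CG13461 (r = 0.833) and Hsp70Bb (r = 0.813), and Hsp68, Hsp70Bc and Hsp70Bb all peaked in Su113 St7-8 replicate 1. For Hsp67Bc the gene most alike was lncRNA:CR45913 (r = 0.955). No more than likeness over these libraries was measured.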

How the data were processed

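The authors deposited 1 table of whole-number counts per gene for 16 libraries. Per the labels' protocols the libraries were made with a stranded total RNA kit, and per the submitters' processing notes dm6 and DESeq2 were used; the aligner, the counter, its strand setting and the annotation are not given in the sources used here, so overlapping genes and near-identical Hsp70 copies may share reads. Gene names and positions came from Ensembl release 115, whose assembly is that of dm6. Members and lists were chosen with earlier results of these data known.

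Genes were kept with edgeR's filterByExpr (12398 of 17753; 5355 removed), scaled by TMM and fitted as 8 group means over the 16 libraries with edgeR 4.0.16 in R 4.3.3 (glmQLFit with the legacy dispersion, glmQLFTest), two-sided, with Benjamini-Hochberg adjustment over all genes tested and a threshold of 0.05. SE is the log2 fold change divided by the root of F, and log2 CPM uses a prior count of 2. The steps were tested on simulated data that varied less between libraries than these, so that test does not show how calls behave at the spread seen here. Intervals and limits of 3 counts cover counting error only. Nothing says that replicates came from separate cages, so p-values measure the spread between these pools. Named are all 10 members, and of the 47 chaperone genes Hsf and up to 5 called per comparison by adjusted p. The 2 called higher in Su(var)3-9 at St7-8 are named as well. For likeness, genes among the 3 with the highest r are named. Same-numbered replicates did not deviate together (r over 0.1 in 3 of 28 pairs of groups, -0.504 to 0.33), so they were not treated as pairs. Alternatives were DESeq2 1.42.0, its size factors, no filter, a replicate block, fewer libraries in the fit, the mean log2 CPM of 15 later zygotic genes as a covariate, and each library left out; the edgeR 4 dispersion and the sum over 6 Hsp70 copies were added after seeing the data.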

Additional observations from a re-analysis of the deposited data

Results flagged for a closer look

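The results below concern Su113 and Su140, 2 alleles of the same gene. Their effects against wm4h at the same labelled stage differed by the test of the difference itself, as described in the report. At St7-8 the log2 difference of Su113 over Su140 was 3.75 for Hsp70Bb, 3.29 for Hsp26, 2.17 for Hsp23, 1.84 for Hsp83 and 1.46 for DnaJ-1. At NC14 it was 1.86 for Hsp23. Against wm4h at St7-8, Hsp23 was called in Su140, Hsp83, Hsp26 and Hsp70Bb were called in Su113, and DnaJ-1 was called in neither, at 0.60 in Su113 and -0.86 in Su140. The Su113 St7-8 libraries also held 86.8 and 447 CPM of the muscle gene Mhc, against 0.335 and 412 CPM in Su140. Summed over the 8 older embryo genes, however, they held 407 and 1083 CPM, against 424 and 1283 CPM in Su140. The germ plasm gene osk was at 286 and 631 CPM in Su113, against 137 and 69.6 CPM in Su140. The germ plasm sums were 2618 and 4096 CPM in Su113 and 2256 and 1877 CPM in Su140. Later zygotic genes, 15 in all, summed to 519 and 224 CPM in Su113 and 1006 and 965 CPM in Su140 at St7-8. At NC14 they summed to 338 and 372 CPM in Su113 and 129.6 and 133 CPM in Su140. With the later zygotic score in the model, Hsp23 at St7-8 was the only one of these calls kept. The Hsp23 call at NC14 was lost with each library left out. The part of stage, older embryo material and pole cells in these differences was not tested.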

How the results depend on the processing

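With 2 libraries per group, few calls of members were firm. Of 27 called values of members, 0 kept the call under every alternative run and 7 kept it with each library left out, while none changed sign; of 1592 alternative values of members, 85 changed sign. At NC14 DESeq2 called 1 (Su113), 2 (Su140) and 2 (Su(var)3-9) members. Of all genes it called 774 of 10901, 2529 of 11214 and 757 of 10901 there. At St7-8 it called 6 (Su113) and 3 (Su140) members, against 1390 and 1002 of 11527 genes. For the change of the Su113 and Su(var)3-9 effects it called 5 and 1, against 782 of 10588 and 1011 of 9337 genes. Between the Jasper alleles at NC14 and St7-8 it called 2 and 8, against 1765 of 10901 and 1399 of 10275 genes. With only the libraries of the stage or genotype, edgeR called 2 members in Su140 at NC14, against 2480 of 10830 genes. At St7-8 the count was 0 in Su113 and 0 in Su140, against 2 and 0 of 12019 genes. Between stages in Su113 it was 3, against 890 of 11216 genes. Between alleles it was 2 and 0, against 1672 of 10830 and 0 of 12019 genes. With the later zygotic score the count was 0 in Su140 at NC14, against 5 of 12398 genes. At St7-8 it was 1 in Su113 and 0 in Su(var)3-9, against 22 and 30 of 12398 genes. Between alleles it was 0 and 1, against 21 and 5 of 12398 genes. With the edgeR 4 dispersion the count was 5 in Su113 and 3 in Su140 at St7-8, against 732 and 734 of 12398 genes. Between alleles at St7-8 it was 8, against 585 of 12398 genes. For the change of the Su113 effect the count was 1 with DESeq2's size factors, against 25 of 12398 genes. With no filter it was 3, against 39 of 16221 genes. The cause was not tested.

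With a library left out, the count ranged 0 to 1 in Su(var)3-9 at NC14, at St7-8 1 to 3 (Su113), 0 to 1 (Su140) and 2 to 3 (Su(var)3-9), between stages 0 to 6 (Su113), 0 to 2 (Su140) and 0 to 2 (Su(var)3-9), 0 to 4 for the change of the Su113 effect, and 0 to 0 and 3 to 6 between alleles at NC14 and St7-8; a lone library is then assumed to vary like the other groups. Without Su113 St7-8 replicate 1, Hsp68 in Su113 turned to -0.49 against wm4h and -0.48 between stages, and Hsp23 between stages to -0.19, against 2.9, 2.88 and 1.09 without Su113 St7-8 replicate 2. Hsp70Bb in Su140 at NC14 turned to 0.39 with the later zygotic score, and summing the Hsp70 copies turned Hsp70Aa at NC14 to -0.14 (Su113), -0.02 (Su140) and -0.18 (Su(var)3-9). The replicate block gave 2 members in Su113 at St7-8 and 2 between stages in Su(var)3-9, against 230 and 2453 of 12398 genes. Elsewhere it gave the main count of members. Counts near 3 limit Hsp22, Hsp67Bc and Hsp70Aa at NC14.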
